A study of Mus musculus with 3 samples.

Results

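The guanylate-binding proteins (GBPs) are large GTPases of the dynamin superfamily that cells make in response to interferon. Of their genes, 10 were followed by symbol in RNA sequencing of macrophages from the mouse heart, liver and kidney: Gbp2, Gbp2b, Gbp3, Gbp4, Gbp5, Gbp6, Gbp7, Gbp8, Gbp9 and Gbp10. They were found among 24453 gene symbols, each represented by its longest coding RefSeq transcript or, where it had none, by its longest other transcript. The symbols thus include non-coding genes. All 10 Gbp genes reached 1 RPKM in at least 1 library, as did 11482 genes in all. RPKM is reads per kilobase of exon, scaled so that the reads of all transcript rows sum to 1000000 per library. Each tissue had 1 library, from C57BL/6 mice 8 weeks old. Flow sorting kept cells with CD11b and F4/80 on their surface and without Ly6G and Ly6C (CD11b+ F4/80+, Ly6G-, Ly6C-). The heart sample is labelled cardiac macrophages, the liver sample Kupffer cells (the macrophages of the liver sinusoids) and the kidney sample renal macrophages. The treatment, sex and number of the mice are not stated in the labels. RNA was amplified with a kit for low input before the libraries were made. With 1 library per tissue there was no spread between animals to test against, so every difference describes these 3 libraries.

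Interferon gamma acts through its receptor and the kinases JAK1 and JAK2, and its signal reaches gamma-activated sites (GAS) in promoters. It also induces the transcription factor IRF1, which binds interferon-stimulated response elements (ISRE), the elements through which type I interferon acts. GBPs made in this way assemble on the vacuoles of intracellular pathogens and on bacteria in the cytosol, disrupt them and promote inflammasome activation, and macrophages are a main cell type in which this has been studied. Mice lacking the chromosome 3 cluster of Gbp genes are known to control Toxoplasma gondii poorly.

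The genes lie in 2 clusters. In the coordinates of the deposited table (mm10) the chromosome 3 cluster, on the plus strand, runs from Gbp5 (142496934 to 142522344) through Gbp7 (142530336 to 142550151), Gbp3 (142560052 to 142573212) and Gbp2b (142594847 to 142619176) to Gbp2 (142620663 to 142638008). The chromosome 5 cluster, on the minus strand, holds Gbp8 (105014153 to 105053561), Gbp9 (105078394 to 105110292), Gbp4 (105115767 to 105139586), Gbp10 (105215699 to 105239533) and Gbp6 (105270702 to 105293699). RefSeq promoter sequences (GRCm38.p6) were matched for the 5 chromosome 3 members. Gbp4, Gbp6, Gbp8, Gbp9 and Gbp10 had no entry. The 250 bases before the start of 4 of them are shown because these genes had contrasting patterns across the libraries: Gbp2b with the widest range, its neighbour Gbp2, Gbp5, highest in the heart, and Gbp7, whose level varied little. Capitals mark matches to an ISRE (GAAA, any 2 bases, GAAA) or a GAS (TTC, any 3 bases, GAA), searched on both strands.
Gbp2b (chr3:142594597-142594846, plus strand): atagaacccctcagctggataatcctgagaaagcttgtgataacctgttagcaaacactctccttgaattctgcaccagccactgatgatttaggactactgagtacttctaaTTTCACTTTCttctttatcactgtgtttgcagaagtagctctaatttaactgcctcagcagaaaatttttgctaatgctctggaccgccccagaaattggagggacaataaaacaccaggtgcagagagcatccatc
Gbp2 (chr3:142620413-142620662, plus strand): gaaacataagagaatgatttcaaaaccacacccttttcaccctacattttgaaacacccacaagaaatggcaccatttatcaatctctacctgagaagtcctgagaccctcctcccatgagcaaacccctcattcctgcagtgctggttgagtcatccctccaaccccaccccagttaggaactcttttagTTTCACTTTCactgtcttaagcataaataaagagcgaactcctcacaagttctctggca
Gbp5 (chr3:142496684-142496933, plus strand): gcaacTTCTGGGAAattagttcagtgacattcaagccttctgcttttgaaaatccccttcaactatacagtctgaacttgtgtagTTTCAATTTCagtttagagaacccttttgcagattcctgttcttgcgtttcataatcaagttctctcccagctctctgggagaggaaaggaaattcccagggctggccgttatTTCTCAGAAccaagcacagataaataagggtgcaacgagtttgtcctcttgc
Gbp7 (chr3:142530086-142530335, plus strand): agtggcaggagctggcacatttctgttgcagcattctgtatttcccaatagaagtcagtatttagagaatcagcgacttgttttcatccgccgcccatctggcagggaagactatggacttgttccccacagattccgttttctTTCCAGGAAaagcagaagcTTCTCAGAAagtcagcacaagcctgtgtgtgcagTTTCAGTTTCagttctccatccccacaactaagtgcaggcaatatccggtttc
All 4 stretches held 1 ISRE match each, which stands in the printed strand as its reverse complement. It began 137 bases before the start in Gbp2b, 59 in Gbp2, 165 in Gbp5 and 53 in Gbp7. Gbp3 has 2 entries, of which 1 held 2 overlapping ISRE matches, 45 and 39 bases before the start, and the other none. A GAS match stood in Gbp5 (245 and 52 bases before the start) and in Gbp7 (106 and 87 bases before it), and none of these letters stood in the windows of Gbp2b, Gbp2 and Gbp3. Among 32851 RefSeq promoter stretches of this length, 2.98% held an ISRE match, 7.02% a GAS match and 0.332% both. These are matches of letters, and no binding was measured.

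The members are close paralogs, and how far their reads can be told apart differs between the clusters. Each member was matched to a GENCODE M21 transcript, and its windows of 50 bases were looked up in the transcripts of the other genes. The read length and the treatment of reads with several matches were not found in the labels or headers, so the window length is a choice. The chromosome 3 members shared few windows with other Gbp genes: 0% for Gbp5, 1.84% for Gbp2b, 2.07% for Gbp2, 2.28% for Gbp7 and 4.79% for Gbp3. The chromosome 5 members shared more, 9.56% for Gbp9, 12.8% for Gbp4, 21.2% for Gbp8, 70.3% for Gbp6 and 73.9% for Gbp10.

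Gbp6 and Gbp10 are the extreme pair. Their longest reading frames were 98.4% identical, against 82.5% for Gbp2b and Gbp2 and 79.6% for Gbp3 and Gbp7, and 62.3% of the windows of Gbp6 were also in Gbp10. In addition the annotated gene Gm43302 covers 66.3% of the exon bases of Gbp6 and 50.8% of those of Gbp10 on the same strand, and Gm43802 covers 11.3% of those of Gbp7. Values of Gbp6 and Gbp10 are therefore uncertain as values of single genes. The transcript matched to Gbp6 was also shorter (2604 bp) than the deposited one (4303 bp), and that matched to Gbp9 was longer (4381 against 3620 bp). Their shares of windows are thus not exactly those of the deposited transcripts.

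**Figure D1:**
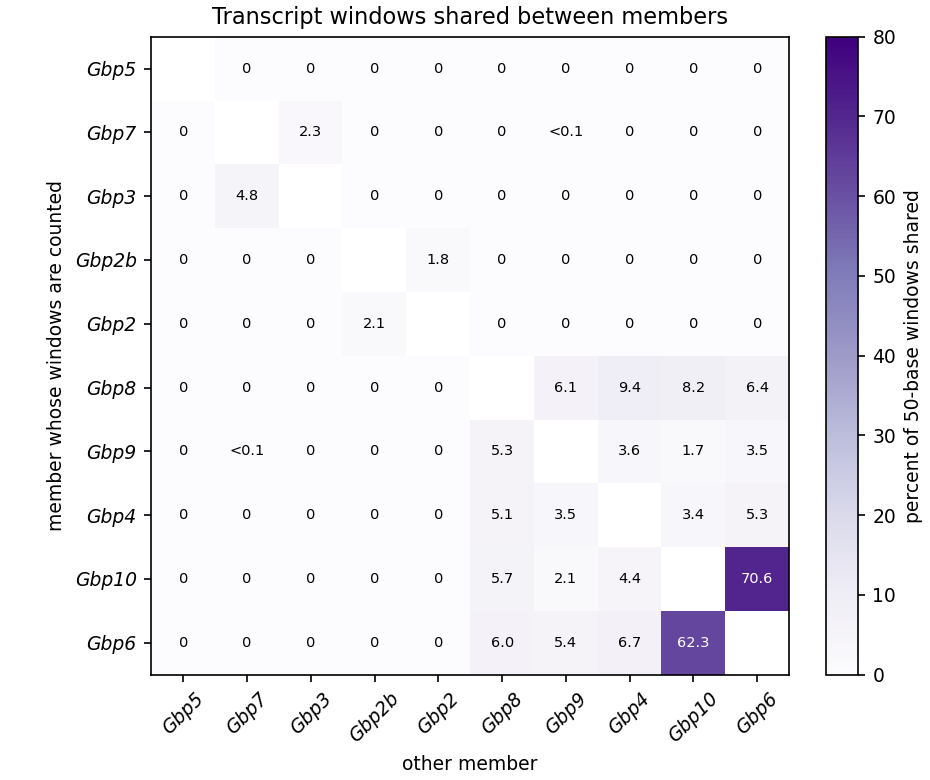
Percent of the 50-base windows of each member's transcript (rows) found in each other member (columns), in the order of the genes along chromosomes 3 and 5. Gbp6 and Gbp10 share most of their windows, and a single window, of Gbp7 and Gbp9, is shared between the clusters.

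Reads were recovered from RPKM times exon length, which gave totals of 14460684, 16743426 and 15550859 reads for the heart, liver and kidney library. The totals run over all transcript rows, where isoforms count the same reads again, so they are not the sequencing depth. With 1 transcript per gene the sums were 8751978, 10373696 and 9485368 reads. Intervals of levels are exact 95% Poisson intervals and those of ratios exact 95% Clopper-Pearson intervals, both from these reads. They hold counting error alone, as PCR copies and independent molecules look the same here. The macrophage genes Adgre1, Csf1r, Itgam, Cd68, Mertk, Fcgr1 and Lyz2 summed to 1799, 1840 and 1700.3 RPKM in heart, liver and kidney, with none at 0. Of 5 Kupffer cell markers, all were detected in the liver library, 2 in the heart and 0 in the kidney library.

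Genes of other cell types were highest in the liver library for most lists. The summed level in heart, liver and kidney was 10.2, 87.1 and 12.4 RPKM for 8 endothelial markers, 29.3, 212 and 7.08 RPKM for 5 markers of liver sinusoidal endothelium, and 11.4, 76.2 and 1.1 RPKM for 12 markers of T and NK cells. In that order 1, 1 and 3 endothelial, 3, 0 and 4 sinusoidal, and 6, 5 and 11 T and NK markers had 0 reads. The defining sinusoidal marker Stab2 stood at 0, 57.5 and 0 RPKM and Cdh5, the VE-cadherin of endothelium, at 0.766, 52.9 and 0.032 RPKM. Other markers of these lists were highest in the heart: Bmp2, which made up most of the sinusoidal sum there, at 28.0, 6.99 and 7.08 RPKM, and the endothelial marker Emcn at 5.26, 0.908 and 3.96 RPKM. B cell markers (5) summed to 35.9, 222 and 168 RPKM, with Pax5 at 0 reads in every library and most of the sum from Cd79b. Hepatocyte markers (5) summed to 0.455, 98.8 and 0.22 RPKM, renal tubule markers (6) to 0.063, 0 and 283 RPKM, monocyte markers (4) to 261, 399.98 and 238 RPKM and dendritic cell markers (5) to 3.45, 2.92 and 11.0 RPKM. Plac8 made up most of the liver monocyte sum, at 129, 337 and 5.69 RPKM in heart, liver and kidney. Ccr2 (117, 54.2 and 227), Chil3 (4.89, 0 and 0) and Ly6c2 (9.74, 8.41 and 5.58) were not highest in the liver. Among T and NK markers, Klrb1c (1.03, 0 and 1.10) and Prf1 (0.371, 0 and 0) had 0 reads there. The liver library, which had the highest Gbp levels, thus also had the highest endothelial, T and NK cell, B cell, hepatocyte and monocyte sums. Their part in the Gbp values was not tested. In bulk RNA, fewer cells that express a gene and less RNA per cell cannot be told apart.

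The family as a whole was most abundant in the liver library and least abundant in the heart library. Summed over the 10 members, the level was 210 RPKM in heart, 685 in liver and 331 in kidney. In reads the liver sum was 2.93-fold the heart sum (counting interval 2.86 to 2.99) and 1.98-fold the kidney sum (1.94 to 2.01). Reads were scaled to the total of each library given above. The order liver, kidney, heart held for 7 of the 10 members, an order found in 22.2% of all genes compared. Of the 10, 8 were lowest in the heart library, against 37.7% of all genes, and 8 were highest in the liver library, against 39.2%. The exceptions were Gbp4, highest in the kidney, Gbp5, highest in the heart, and Gbp7, lowest in the kidney.

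The clusters differed in how much they contributed. The chromosome 5 members together stood at 10.5, 152 and 75.5 RPKM across heart, liver and kidney, and made up 4.98%, 22.1% and 22.9% of the family's summed RPKM. The chromosome 3 members stood at 199.6, 533 and 255 RPKM. In reads, the chromosome 5 sum was 11.8-fold higher in the liver than in the heart library (10.8 to 12.8) and 6.54-fold higher in the kidney than in the heart library (5.99 to 7.15). Gbp8 carried much of this, and without it the ratios were 6.63 (6.06 to 7.27) and 5.03 (4.59 to 5.53). For the chromosome 3 sum the ratios were 2.42 (2.36 to 2.48) and 1.19 (1.16 to 1.22), and 1.73 and 1.13 without Gbp2b. A read counted for several members, if there were such reads, would enter a sum more than once. The intervals of sums, here and above, do not allow for this and may be too narrow.

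**Figure D2:**
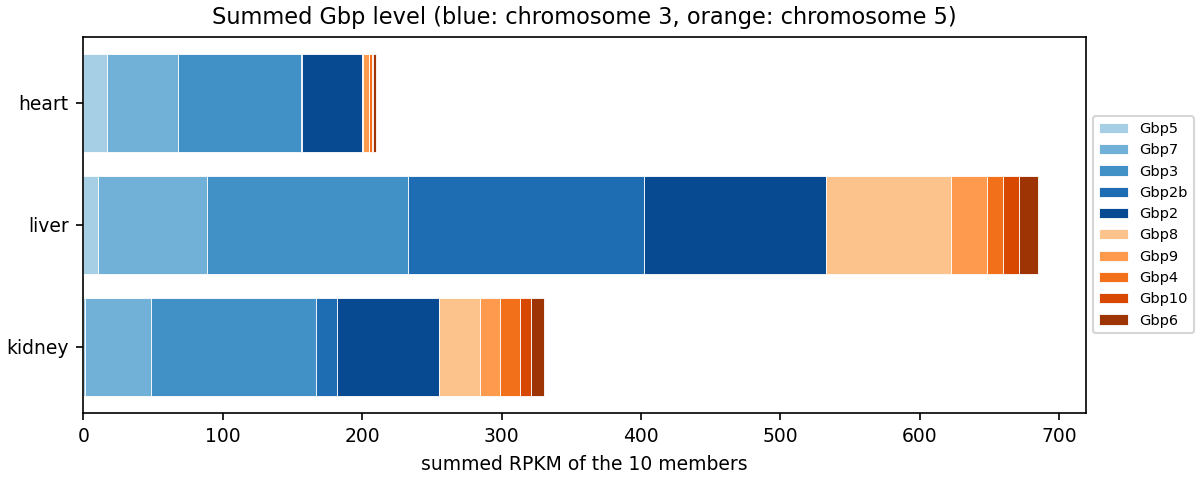
Summed RPKM of the 10 members in each library, as stacked bars that start at 0, with chromosome 3 members in blue and chromosome 5 members in orange. The bars reach 210, 685 and 331 RPKM in heart, liver and kidney, and the orange part of the heart bar is 10.5 RPKM.

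Gbp2b, the mouse gene also named Gbp1, had the widest range of the family. It stood at 0.394 RPKM in heart (95% interval 0.225 to 0.640, 16 reads), 169 in liver (165 to 173, 7946 reads) and 14.98 in kidney (13.9 to 16.2, 654 reads). It was thus the lowest member in the heart and the highest in the liver library, and the 3 intervals did not overlap. The liver level was 429-fold the heart level (counting interval 264 to 751) and 11.3-fold the kidney level (10.4 to 12.2). The kidney level was 38.0-fold the heart level (23.2 to 66.9).

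Gbp2, whose protein is known to be recruited to the Toxoplasma vacuole, starts 1486 bases after the end of Gbp2b. It stood at 42.9 RPKM in heart (40.8 to 45.1), 131 in liver (127 to 134) and 73.4 in kidney (70.7 to 76.2). The order of the libraries was the same as for Gbp2b but the range was narrower, with the liver 3.05-fold above the heart (2.88 to 3.23). Within a library, Gbp2 was 109-fold above Gbp2b in the heart and 4.90-fold above it in the kidney, while Gbp2b was 1.29-fold above Gbp2 in the liver.

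Gbp3 and Gbp7 were abundant in every library and varied least. Gbp3 stood at 88.2 RPKM in heart (85.3 to 91.1), 144 in liver (141 to 148) and 118 in kidney (115 to 121), and was the highest member in heart and kidney. Gbp7, reported to act in oxidative defence against bacteria, stood at 51.0 RPKM (49.5 to 52.6), 77.97 (76.2 to 79.8) and 47.4 (46.0 to 48.9). Its heart and kidney levels were close, at a ratio of 1.08 (1.03 to 1.12), and the liver level was 1.53-fold the heart level (1.47 to 1.59). Its transcripts overlap another annotated gene, as given above.

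Gbp5, reported to promote the NLRP3 inflammasome, was the only member with its own highest level in the heart library. It stood at 17.2 RPKM in heart (15.9 to 18.4, 746 reads), 10.9 in liver (9.97 to 11.8, 547 reads) and 1.09 in kidney (0.812 to 1.43, 51 reads). The heart level was 15.7-fold the kidney level (11.8 to 21.3) and 1.58-fold the liver level (1.41 to 1.77). Gbp5 came after Gbp3, Gbp7 and Gbp2 in the heart and was the lowest member in the liver and the kidney library, although in the liver its interval overlapped that of Gbp10. It shared none of its windows with other members.

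**Figure D3:**
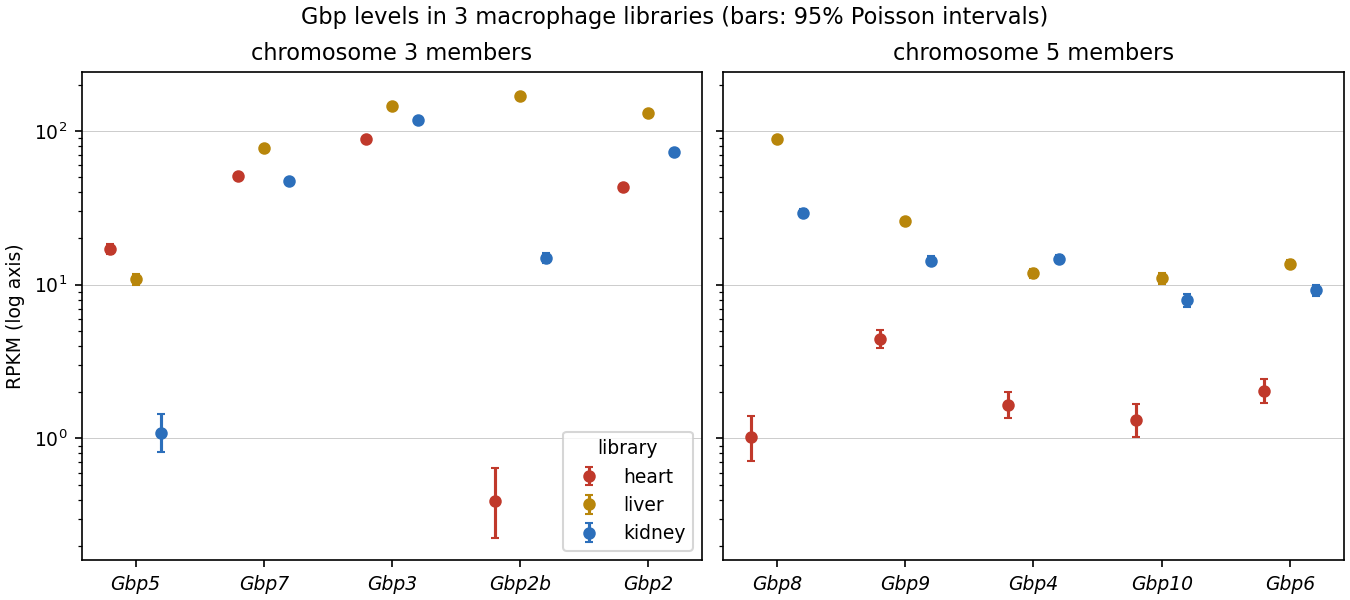
RPKM of each member on a log axis for heart, liver and kidney, with exact 95% Poisson intervals as bars (smaller than the points where not visible). Gbp2b spans 0.394 to 169 RPKM, Gbp5 is the only member with its own highest level in the heart, and all 5 chromosome 5 members are lowest in the heart.

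Of the chromosome 5 members, Gbp8 differed most. It stood at 1.02 RPKM in heart (0.713 to 1.41, 36 reads), 89.2 in liver (86.3 to 92.1, 3654 reads) and 29.4 in kidney (27.7 to 31.2, 1119 reads). The liver level was 87.7-fold the heart level (63.2 to 125) and 3.03-fold the kidney level (2.84 to 3.25), and no intervals overlapped. Its neighbour Gbp9 stood at 4.43 RPKM (3.88 to 5.04), 25.9 (24.6 to 27.2) and 14.4 (13.4 to 15.4). The ratio of Gbp8 to Gbp9 was 0.229 in heart, 3.45 in liver and 2.05 in kidney, so which of them was higher differed between heart and the others.

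Gbp4, Gbp6 and Gbp10 were low in the heart and stood near each other in the liver library. In the kidney library Gbp4 stood above Gbp6 and Gbp10, with no overlap of its interval with theirs. Gbp4 stood at 1.65 RPKM in heart (1.35 to 1.99), 11.9 in liver (11.1 to 12.7) and 14.7 in kidney (13.8 to 15.6), the only member highest in the kidney, at 1.23-fold its liver level (1.13 to 1.35). Gbp6 stood at 2.04 RPKM (1.70 to 2.43), 13.7 (12.8 to 14.6) and 9.21 (8.49 to 9.96). Gbp10 stood at 1.32 RPKM (1.02 to 1.67), 10.98 (10.1 to 11.9) and 7.90 (7.18 to 8.68). The ratio of Gbp6 to Gbp10 was 1.55, 1.25 and 1.16 in heart, liver and kidney, and with most windows shared these ratios are uncertain. Gbp11, a further family symbol on chromosome 5 that was not among the members and is annotated as a polymorphic pseudogene, stood at 0.436, 8.71 and 4.30 RPKM (17, 393 and 180 reads).

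The order of the members within a library could mostly be read beyond counting error. In the heart it was Gbp3, Gbp7, Gbp2, Gbp5, Gbp9, Gbp6, Gbp4, Gbp10, Gbp8 and Gbp2b, where the intervals of neighbours overlapped from Gbp6 to Gbp8. In the liver it was Gbp2b, Gbp3, Gbp2, Gbp8, Gbp7, Gbp9, Gbp6, Gbp4, Gbp10 and Gbp5, with overlap from Gbp4 to Gbp5. In the kidney it was Gbp3, Gbp2, Gbp7, Gbp8, Gbp2b, Gbp4, Gbp9, Gbp6, Gbp10 and Gbp5, with overlap from Gbp2b to Gbp9 and between Gbp6 and Gbp10. Gbp3, Gbp2 and Gbp7 were among the leading 5 in every library, and the place of Gbp2b moved most.

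Several liver values were densely covered. Gbp2b, Gbp3 and Gbp2 had 2.83, 2.42 and 2.19 reads per base of exon there, and all other values of members were at most 1.84. The file header sets a limit of 3 tags per position, and what this limit did to these liver values was not tested. Isoforms made little difference: the 3 transcripts of Gbp3 stood at 88.2 to 93.97 RPKM in the heart, the 2 of Gbp7 at 51.0 and 51.3 and the 2 of Gbp4 at 1.65 and 1.67, and they count largely the same reads.

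Differences between libraries were set against those of all genes on the scale of log2(RPKM + 1), where at least 2 units (4-fold on this scale) counted as different. Heart against liver, 6 of 10 members were lower in heart by 4-fold or more (Gbp2b, Gbp4, Gbp6, Gbp8, Gbp9 and Gbp10) and 0 were higher, where 7.13% of the 11482 genes were lower and 5.33% higher. The median difference of the members, heart minus liver, was -2.28, with 9 of 10 below 0, against a median of -0.16 for all genes. All 5 chromosome 5 members were among the 6, with differences of -5.48 for Gbp8 and -2.37 to -2.27 for the other 4, and of the chromosome 3 members only Gbp2b, at -6.93. Gbp6, Gbp4, Gbp9 and Gbp10 lie just past the threshold, and with a pseudocount of 5 the count lower in the heart was 2 (Gbp2b and Gbp8), where 2.36% of all genes were lower. Restricted to the 5 members that share at most 5% of their windows with another member, which are those of chromosome 3, the count was 1 and the median -0.70.

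Heart against kidney, 3 members were lower in heart by 4-fold or more (Gbp2b, Gbp4 and Gbp8) and 1 was higher (Gbp5), where 5.1% of all genes were lower and 2.4% higher (7.5% in all). The median difference of the members was -1.62, with 8 of 10 below 0, against -0.23 for all genes. Gbp8 was lowest at -3.91, Gbp5 highest at 3.12, and Gbp10 and Gbp6 stood short of the threshold at -1.94 and -1.75. Gbp2b, Gbp4 and Gbp8 thus passed 4-fold below both liver and kidney, as did 1.26% of all genes. With a pseudocount of 5 only Gbp8 passed, where 1.86% of all genes did in either direction. With a pseudocount of 0.1, 6 members passed, where 20.5% of all genes did, with Gbp10 at -2.50 and Gbp6 at -2.12. TPM scaling gave 5 members, where 16.4% of all genes passed, with Gbp10 at -2.30. As plain ratios of RPKM, the kidney levels of Gbp10 and Gbp6 were 6.00-fold and 4.51-fold their heart levels. Restricted to the 5 members that share few windows, 2 passed (Gbp2b and Gbp5) and the median was -0.42. The 2 comparisons with the heart share the heart library.

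Kidney against liver, 2 members were lower in kidney by 4-fold or more (Gbp2b at -3.41 and Gbp5 at -2.50) and 0 were higher, where 5.1% of all genes were lower and 7.57% higher. The median difference was -0.76, with 9 of 10 below 0, against 0.04 for all genes. Gbp4 was the exception at 0.28. With a pseudocount of 5 only Gbp2b passed, where 3.41% of all genes did. The split of all genes into higher and lower depended on the scaling, as 772 were higher and 670 lower for heart against liver with median ratio scaling, and 1458 and 1262 with TPM, against 612 and 819 as deposited. For heart against kidney these counts were 342 and 415 with median ratio scaling and 640 and 1247 with TPM, against 275 and 586. For kidney against liver they were 776 and 574 with median ratio scaling, against 869 and 586. With TPM they were 1908 and 926 (24.7% of all genes). The count of members stayed at 2 under both. The pseudocount stayed at 1 on the TPM values, so the totals with TPM do not show the effect of scaling alone. For heart against liver 23.7% of all genes passed with TPM, 12.6% with median ratio scaling and 28.5% with a pseudocount of 0.1. TPM scaling moved the median of all genes to -0.02 for heart minus liver and to 0.15 for kidney minus liver, and median ratio scaling moved it to -0.01 for heart minus kidney. The signs of all 30 differences of members held under both scalings.

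**Figure D4:**
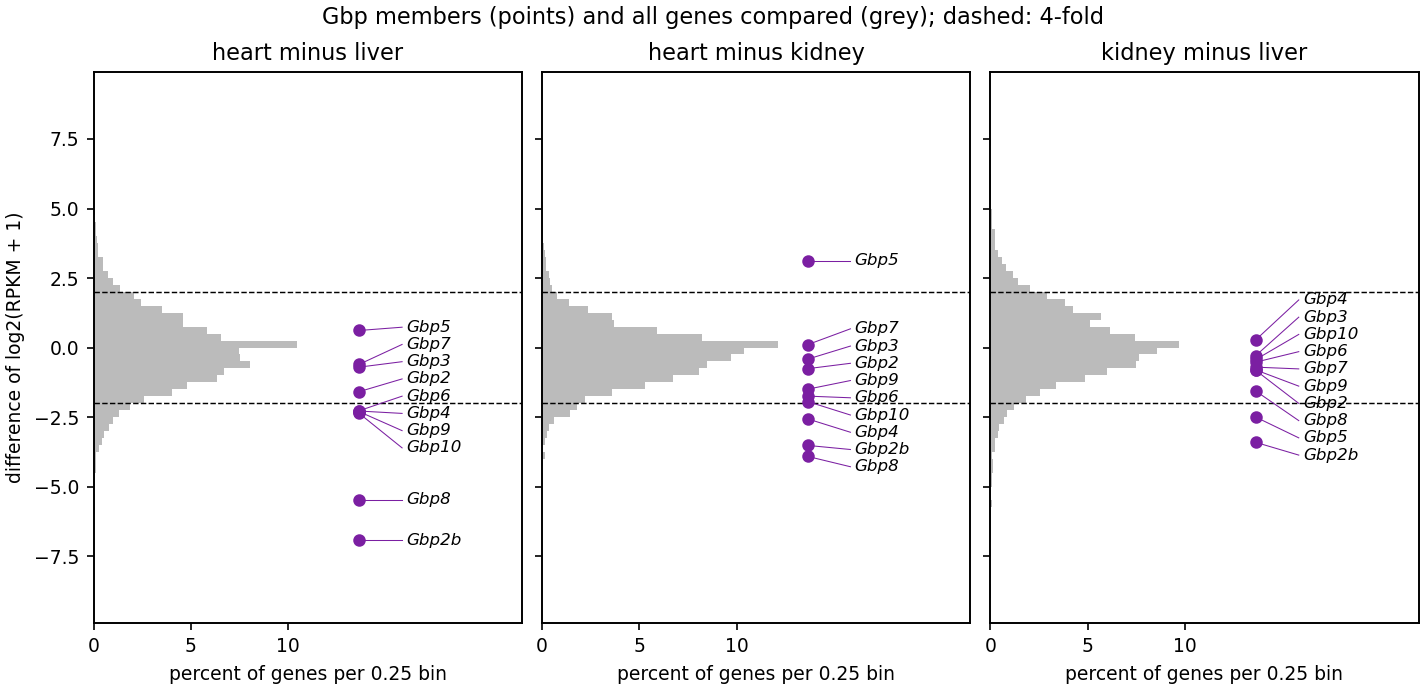
Difference of log2(RPKM + 1) of each Gbp member (points, labelled) in the 3 comparisons, beside the distribution of all 11482 genes compared (grey bars, percent of genes per bin of 0.25). Dashed lines mark 4-fold. Farthest from 0 lie Gbp2b and Gbp8 for heart minus liver, Gbp8, Gbp2b and Gbp5 for heart minus kidney, and Gbp2b and Gbp5 for kidney minus liver.

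Genes that act upstream of the GBPs were taken as lists. These and the lists below are to be read beside the share of all genes past 4-fold in either direction. For heart against liver, heart against kidney and kidney against liver it was 12.5%, 7.5% and 12.7%. With TPM scaling it was 23.7%, 16.4% and 24.7%, and with median ratio scaling 12.6%, 6.59% and 11.8%. Values by direction are given above. Ifng, which encodes interferon gamma itself, had 0 reads in all 3 libraries, which allows at most 0.172, 0.149 and 0.16 RPKM (3 reads) in heart, liver and kidney. Of 8 compared genes of the interferon gamma receptor and its signalling, 1 (Jak2) was 4-fold or more above liver and above kidney in heart, and 0 were 4-fold below either. Jak2 had 16.3, 3.09 and 3.07 RPKM in heart, liver and kidney. Irf1 stood at 65.9, 23.2 and 209 RPKM, 9.02-fold higher in the kidney than in the liver library. Irf8, a factor of the myeloid lineage, stood at 10.7, 27.8 and 26.0 RPKM. Irf1 was lowest and Irf7, given below, highest in the liver library, where most Gbp genes were highest. The part of either in the Gbp levels was not tested.

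Of 6 genes of the type I interferon receptor and its signalling, only Irf7 passed 4-fold, at 2.62, 159 and 37.9 RPKM, below its liver and kidney level in heart and below its liver level in kidney. With TPM scaling 2 of the 6 were 4-fold or more below kidney in heart and 0 passed between kidney and liver. Tyk2, a kinase of the receptor, stood at 0.471, 2.31 and 3.53 RPKM, Stat2 at 4.70, 10.6 and 16.96 RPKM and Ifnar1, a receptor chain, at 13.9, 11.4 and 32.97 RPKM. Of 7 negative regulators, 3 were 4-fold or more above their liver level in heart and 1 was below it. Socs3 stood at 37.5, 2.09 and 10.3 RPKM, the phosphatase Ptpn2 at 34.6, 2.87 and 9.29 RPKM and Cish at 8.5, 0 and 2.48 RPKM, while the phosphatase Ptpn6 stood at 39.1, 194 and 177 RPKM. Between heart and kidney 0 were higher and 1 was lower, but with median ratio scaling 2 were higher and 0 lower. Between kidney and liver 0 passed, and with TPM scaling 2 were higher in the kidney.

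Other interferon-inducible GTPases were set beside the GBPs. Of 10 immunity-related GTPases, which act with GBPs on pathogen vacuoles, 5 were 4-fold or more below their liver level in heart and 3 below their kidney level, with 0 above either and 0 past 4-fold between kidney and liver. Their median difference was -2.04 (heart minus liver), -1.27 (heart minus kidney) and 0.03 (kidney minus liver). Median ratio scaling left 2 and 2 of them past 4-fold, and TPM scaling 3 and 3. Tgtp1 and Tgtp2, a near-identical pair that reads may not tell apart, had 12.7, 59.7 and 65.7 RPKM (Tgtp1) and 13.7, 69.5 and 76.2 RPKM (Tgtp2). Gm12250, known as Irgb10, stood at 7.31, 31.9 and 37.6 RPKM, and F830016B08Rik at 1.37, 13.6 and 4.18 RPKM. Of 6 other large interferon-inducible GTPases 0 passed 4-fold in either heart comparison, and 1 was higher in the kidney than in the liver library. This was Mx1, an antiviral GTPase, at 4.63, 1.38 and 16.97 RPKM. Gvin1 stood at 61.9, 68.9 and 109 RPKM, Gm17757 at 15.0, 14.2 and 27.8 RPKM, both of a family with similar copies, and Ifi47, an immunity-related GTPase placed in this list, at 33.1, 127 and 75.2 RPKM.

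Among 14 compared interferon gamma response genes of macrophages, 6 were 4-fold or more below their liver level in heart and 6 below their kidney level, with 0 above either. Ly6a stood at 24.4, 230 and 88.97 RPKM in heart, liver and kidney, Serpina3g, a protease inhibitor, at 0, 46.1 and 12.1 RPKM, and Ubd, a ubiquitin-like protein, at 0, 18.1 and 1.999 RPKM. Ciita, the master regulator of MHC class II genes, followed another order, at 1.45, 4.29 and 23.6 RPKM. With TPM and median ratio scaling the counts lower in the heart than in the kidney were 8 and 4. Between kidney and liver 2 were higher in the kidney and 1 was lower. Nos2 and Ido1, which macrophages induce strongly with interferon gamma, had 12, 0 and 0 reads and 0 reads in every library.

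Inflammasome, autophagy and prenylation genes were listed as genes that act with or after the GBPs. Of 8 inflammasome genes, Casp4 (caspase-11, the sensor of cytosolic lipopolysaccharide) was 4-fold or more above its liver level in heart, and Casp4 and Nlrp3 above their kidney level, with 0 below; TPM and median ratio scaling each gave 2 above liver. Casp4 stood at 199.6, 35.5 and 32.1 RPKM and Nlrp3 at 112, 29.3 and 26.3 RPKM, while Gsdmd, the pore-forming gasdermin, stood at 12.9, 16.1 and 35.3 RPKM and Il18 at 94.7, 204 and 55.2 RPKM. Of 10 genes of Atg8 conjugation, the autophagy machinery that directs GBPs to vacuoles, 0 passed 4-fold in any comparison, and with TPM scaling 1 was lower in heart and 1 in kidney than in liver. Atg7 stood at 7.25, 14.3 and 17.5 RPKM, Atg12 at 11.0, 16.1 and 22.4, Atg16l1 at 0.482, 2.78 and 0.692 and Map1lc3a at 0.865, 6.27 and 1.11. Of 6 genes of protein prenylation, which attaches the lipid anchor of some GBPs, 1 passed, Fntb, a farnesyltransferase subunit, at 0.027, 2.32 and 3.36 RPKM (1, 99 and 133 reads) and lower in the heart than in the kidney, though with median ratio scaling 0 passed, and with TPM scaling 1 was also below its liver level in heart. Rce1, Icmt and Zmpste24, which process prenylated proteins, stood at 3.99, 12.4 and 6.76 RPKM, 0.477, 2.21 and 1.38 RPKM and 28.5, 47.8 and 39.5 RPKM.

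**Figure D5:**
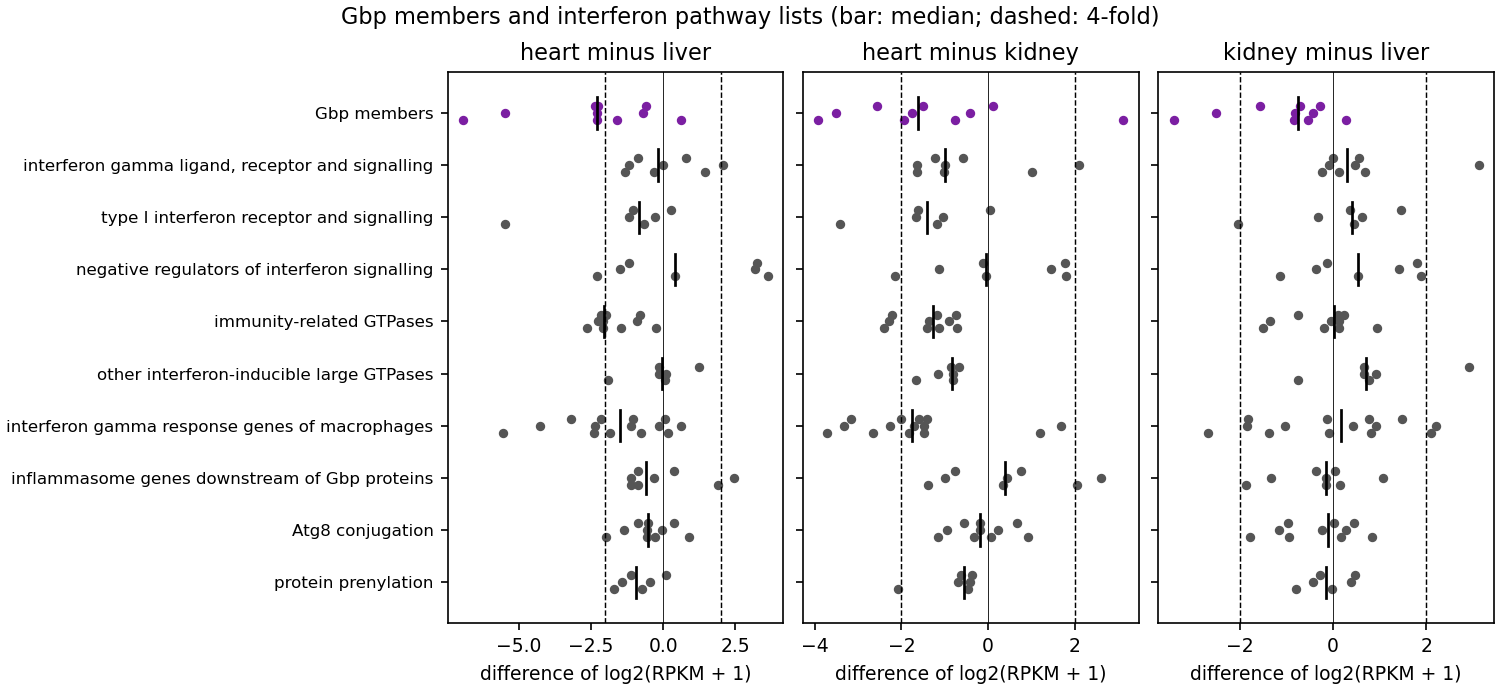
Difference of log2(RPKM + 1) for the 10 Gbp members (purple) and the compared genes of each pathway list (grey) in the 3 comparisons, with the median of each list as a bar and dashed lines at 4-fold; the range of the axis differs between panels. The median of the Gbp members is -2.28, -1.62 and -0.76, and that of the immunity-related GTPases is -2.04, -1.27 and 0.03.

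The genes with the most similar pattern were sought among 5471 other genes with at least 10 RPKM in 1 library. Likeness was the Euclidean distance between 3 log2(RPKM + 1) values, each gene's own mean subtracted. Nearest to the median profile of the members were Gpatch11, Spryd4, Mis12, Eri3 and Mir546, at distances of 0.173 to 0.177. Nearest to Gbp2b were Adamdec1 (0.577, 121 and 8.32 RPKM in heart, liver and kidney; distance 0.691), Fabp1 (0.922), Kcnj16 (1.12), Irf7 (1.16) and Tk1 (1.16). This likeness rests on 3 libraries and is a description only.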

How the data were processed

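RNA from macrophages of 3 tissues was sequenced, with 1 library per tissue. Per the submitters' processing notes CASAVA, STAR and mm10 were used, with versions and settings not given in the sources used here. Per the file headers the deposited RPKM were made by the authors with HOMER analyzeRepeats.pl, counting exon reads of either strand, scaling libraries to 1000000 and capping tags per position at 3 (-pc 3). The column names say FPKM. RPKM times length in kilobases summed to 1000000 in each library over all transcript rows.

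From these values, reads were recovered as whole multiples of a step. Of values of up to 500 reads, 99.97%, 99.88% and 99.95% lay within 0.1 of a whole read in heart, liver and kidney. This recovery and the calls were run on simulated data, with an independent Poisson count for each transcript row. Such data hold no reads shared by isoforms or paralogs and no limit of tags, so they cannot show those effects. No outcome of that run is quoted here. Genes needed 1 RPKM in 1 library, and differences used a pseudocount of 1. A gene at 0 reads was limited by a floor of 3 reads. No test was run, since each group has 1 library.

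Members, lists, motifs and alternatives were chosen with earlier results of these data known. The lists were interferon gamma and type I interferon signalling, negative regulators, immunity-related and other GTPases, response genes, inflammasome genes, Atg8 conjugation, prenylation and the cell type markers. Fcn3, a sinusoidal marker, was not found. All members are named. Of each pathway list up to 4 genes with the largest difference between libraries are named except 1 gene of interferon gamma signalling that is not reported here, with further genes (Ifng, Nos2, Ido1, Gbp11) and markers chosen after their values were seen. Most similar genes were the 5 nearest. Windows and reading frames came from GENCODE M21 and promoters from RefSeq. Python 3.11.15, pandas 2.3.3, numpy 2.4.6 and scipy 1.17.1 were used, with Biopython 1.88 for alignment.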

Additional observations from a re-analysis of the deposited data

How the results depend on the processing

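No paired analysis was possible because each tissue has 1 library. The signs of the members' differences held in every alternative that gave a value. With a pseudocount of 5 the members at least 4-fold different were 2 for heart and liver, 1 for heart and kidney and 1 for kidney and liver, where 4.05%, 1.86% and 3.41% of all genes differed (12.5%, 7.5% and 12.7% with a pseudocount of 1), and the median differences were -1.38 for heart minus liver and -1.02 for heart minus kidney. With a pseudocount of 0.1 these medians were -2.60 and -1.90. The counts in the 3 comparisons were then 6, 6 and 2, where 28.5%, 20.5% and 27.7% of all genes differed. Leaving out the genes covered above 2 reads per bp, which keeps 7 members, the count for kidney and liver was 1, where 12.7% of all genes differed. Keeping only members that share at most 5% of windows with another member, an alternative chosen after seeing the data, gave counts of 1 for heart and liver and 2 for heart and kidney and medians of -0.70 and -0.42, with 5 members left. In these 2 comparisons 12.4% and 7.48% of all genes differed, and the medians of all genes were -0.15 and -0.23. TPM and median ratio scaling, another transcript per gene, no filter and a filter of 5 RPKM kept each count within 1.5 times its value. The lowest level of a member rests on 16 reads, so depth limits the fold of Gbp2b most. Read assignment between Gbp6 and Gbp10 could not be settled from these values.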
